A study of Mus musculus with 11 samples.

Results

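Most mouse genes with a Zfp symbol encode zinc finger transcription factors. By the limit used here, 309 genes with such a symbol were expressed in the hippocampal cell line HT22. They include Zfp85os and Zfp862-ps, whose symbols mark an opposite-strand transcript and a pseudogene. These 309 genes were selected from the 383 genes of the count table whose symbol is Zfp followed by a number, leaving out Zfp36, Zfp36l1 and Zfp36l2, which encode RNA-binding proteins of another finger type. The table held 24143 genes in all, 1 row each. A gene was kept when its mean over all 11 deposited columns reached 2.0 CPM, its count scaled to the total of the library. The level over all columns chose the genes. For 7 of them the mean reached the limit in 1 line only, under it in parent libraries for 4 and in TR/TO-Klf9 libraries for 3, so a difference between the lines is partly fixed for these by the choice. Just outside the limit stood Zfp786 at a mean of 1.81 CPM and Zfp85 at 1.93 CPM, and just inside it stood Zfp975 and Zfp174, both at 2.07 CPM.

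A C2H2 zinc finger is a short protein fold in which a pair of cysteines and a pair of histidines hold a zinc ion, and tandem fingers read DNA a few bases each. Many Zfp proteins carry a KRAB box in front of the fingers, which binds the corepressor Trim28 and through it the histone methyltransferase Setdb1, and KRAB proteins of this kind silence retroelements and some genes. Others carry a SCAN domain, through which zinc finger proteins pair with each other. The KRAB genes arose by tandem duplication and lie in clusters along the chromosomes. Klf9, the factor induced in this study, is itself a C2H2 protein, and factors of its family bind GC-rich and CACCC-type promoter boxes.

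RNA was sequenced from HT22[TR/TO-Klf9] cells, a derivative of the SV40-immortalized HT22 line stably transfected with pCDNA6:TR, the tetracycline repressor, and pCDNA4:TO-Klf9, a Klf9 cassette that doxycycline switches on, and from parent HT22 cells, which carry neither. All cells grew in medium with fetal bovine serum, and the transfected cells were kept under zeocin and blasticidin. Cells received 0.5 µg/ml doxycycline or the vehicle DMSO for 8 h, starting 24 h after plating. The groups used here were TR/TO-Klf9 doxycycline (1 library), TR/TO-Klf9 vehicle (2 libraries), parent doxycycline (3 libraries) and parent vehicle (3 libraries). Another library had been deposited under opposite labels, as TR/TO-Klf9 doxycycline 1 and as TR/TO-Klf9 vehicle 3, with the same count in every row. It was left out of both groups, and its values are given beside the others as the library under both labels. With 1 doxycycline library in the transfected line, the spread of that group was taken from the other groups.

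Library totals ran from 10302431 to 18902784 counts, and the CPM below are scaled between libraries by TMM, the trimmed mean of M-values. Klf9 stood at 101 CPM in the TR/TO-Klf9 doxycycline library, against 48.7 and 44.1 CPM in the TR/TO-Klf9 vehicle libraries, and the library under both labels held 45.9 CPM. The rise in log2 was 1.13 ± 0.08 SE (edgeR quasi-likelihood test, adjusted p = 7.45e-07), and in parent cells Klf9 lay between 36.1 and 41.4 CPM in all 6 libraries. Of 12 neuron markers, 8 lay under 1 CPM in every library, among them Map2, Rbfox3 and Dcx, while all 8 fibroblast markers passed the filter, so most markers that define neurons were absent or near 0 in this neuronal line. Nothing in the labels tells whether the libraries of a group came from separate cultures, and the p-values therefore reflect the spread among these libraries, which may be technical.

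Across the 309 Zfp genes the mean level ran from 2.07 to 469 CPM, with a median of 29.0 CPM. The highest were Zfp207, a spindle assembly protein that binds Bub3, at 469 CPM, Zfp106, an RNA-binding protein needed by motor neurons in mice, at 370 CPM, and Zfp871 at 335 CPM. The lowest were Zfp975 and Zfp174 at 2.07 CPM and Zfp811 at 2.09 CPM. Per kilobase of transcript the order changed. Zfp207 led with 162 CPM per kilobase, Zfp106 held 40.7 and Zfp871 30.9, and the median was 8.36.

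The longest open reading frame of the matched transcript was read for 306 of the genes. It held a median of 10 fingers of the pattern with C, 2 to 4 residues, C, 12 residues, H, 3 to 5 residues and H, and the count of fingers per protein ran up to 34, in Zfp462. Letters of a KRAB A box lay before the first finger in 162 of these reading frames and were not found in 144, and SCAN letters were found in 11. Zfp369 held 6 fingers with both KRAB and SCAN letters, as did Zfp110. These 2 genes encode the neurotrophin receptor interacting factors, known in mice as partners of the low-affinity neurotrophin receptor.

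Runs of Zfp genes were common. Of 307 genes found by symbol in the RefSeq gene order, 165 lay in 27 runs of at least 3 expressed Zfp genes with no more than 5 other genes between neighbours. Chromosome 7 held 78 of the 309 genes, chromosome 17 held 41 and chromosome 13 held 26. The largest run, on chromosome 17, counted 21 genes between Zfp160 and Zfp213, and the next, on chromosome 7, counted 15 genes between Zfp84 and Zfp146 and included Zfp568 and Zfp382.

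Promoter windows are shown for some of the genes named below, since KLF proteins bind boxes of these letters. They run from 250 bases before to 50 bases after the start of the gene and were taken from RefSeq on build GRCm38.p6. Windows existed for 259 of the 309 genes, and Zfp369 had none. Capitals mark the motif GGGCGG, the motif CACCC and the motif CACGCCC, each searched on both strands and so marked also where its reverse complement stands. Zfp382, Zfp329 and Zfp28 fell with doxycycline in TR/TO-Klf9 cells, and Zfp110, the relative of Zfp369, did not pass the test. The fall of Zfp28 did not pass once a trend on transcript length was removed. The windows shown do not stand for all Zfp genes that fell.
Zfp382, chr7:30121682-30121981, strand plus: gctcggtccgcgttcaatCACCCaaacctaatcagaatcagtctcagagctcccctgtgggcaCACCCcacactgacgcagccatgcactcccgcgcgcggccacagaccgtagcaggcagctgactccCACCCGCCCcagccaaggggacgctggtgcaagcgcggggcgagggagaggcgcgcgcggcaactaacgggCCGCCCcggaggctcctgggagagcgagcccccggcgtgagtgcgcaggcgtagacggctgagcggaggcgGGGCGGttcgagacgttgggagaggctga
Zfp329, chr7:12818811-12819110, strand minus: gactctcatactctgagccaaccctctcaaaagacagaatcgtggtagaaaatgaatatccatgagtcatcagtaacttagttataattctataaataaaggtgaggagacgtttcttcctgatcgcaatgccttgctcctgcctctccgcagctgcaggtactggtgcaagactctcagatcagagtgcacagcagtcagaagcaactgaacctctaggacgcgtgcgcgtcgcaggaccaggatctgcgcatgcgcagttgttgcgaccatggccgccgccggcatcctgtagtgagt
Zfp28, chr7:6383068-6383367, strand plus: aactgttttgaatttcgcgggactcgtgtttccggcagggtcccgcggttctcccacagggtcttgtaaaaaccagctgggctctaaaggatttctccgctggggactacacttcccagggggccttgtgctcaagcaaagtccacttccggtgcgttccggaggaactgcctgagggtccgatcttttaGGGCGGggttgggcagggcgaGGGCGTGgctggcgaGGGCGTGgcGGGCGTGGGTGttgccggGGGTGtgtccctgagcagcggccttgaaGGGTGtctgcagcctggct
Zfp110, chr7:12834511-12834810, strand plus: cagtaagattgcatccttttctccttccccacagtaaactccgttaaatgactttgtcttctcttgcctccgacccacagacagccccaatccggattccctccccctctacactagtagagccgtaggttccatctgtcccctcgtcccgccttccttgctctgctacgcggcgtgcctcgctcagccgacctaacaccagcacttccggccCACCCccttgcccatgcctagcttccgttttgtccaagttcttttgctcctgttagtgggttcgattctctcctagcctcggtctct
The window of Zfp382 held 3 GGGCGG and 3 CACCC matches, 1 pair of them overlapping, and 32 CpG. That of Zfp28 held 1 GGGCGG, 3 CACCC and 3 CACGCCC matches, some overlapping, and 20 CpG. Zfp329 held no match to any of the 3 motifs, and Zfp110 held 1 CACCC, with 15 CpG in each. Over the 10475 tested genes with a window, 63.1% held GGGCGG, 61.9% CACCC and 15.2% CACGCCC. Over the 259 Zfp windows the shares were 47.1%, 54.4% and 6.56% in the same order. Of the 24 Zfp genes that fell with doxycycline in TR/TO-Klf9 cells and had a window, 12 held GGGCGG, 11 CACCC and 3 CACGCCC. Of the 10 that rose, 3 held GGGCGG, 7 CACCC and 0 CACGCCC. These are matches of letters and were not tested as binding sites.

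The first question was how Zfp genes differed between doxycycline and vehicle in TR/TO-Klf9 cells, where doxycycline switches Klf9 on. Zfp369 showed the largest fall of the 309, and Zfp704, Zfp964 and Zfp382 followed, while the rises were smaller and led by Zfp937, Zfp422 and Zfp354a. Genes named for this comparison were picked for large changes, so groups that do not overlap follow in part from the choice. All 309 genes passed the filter on low counts. Of them 32 fell (10.4%) and 14 rose (4.53%), past an adjusted p of 0.05 by edgeR with Benjamini-Hochberg adjustment over 13536 genes. Over all tested genes 11.4% fell and 6.44% rose, so the share of Zfp genes in each direction lay near and slightly below the background. The median log2 fold change was -0.04 over the Zfp genes and -0.01 over all tested genes. The 12 neuron markers summed to 14.9 CPM in the doxycycline library, against 18.8 to 23.3 CPM in the vehicle libraries, with Elavl3 lower, and their part in the Zfp differences was not tested. The plot of shares sets these values side by side for every comparison.

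**Figure D1:**
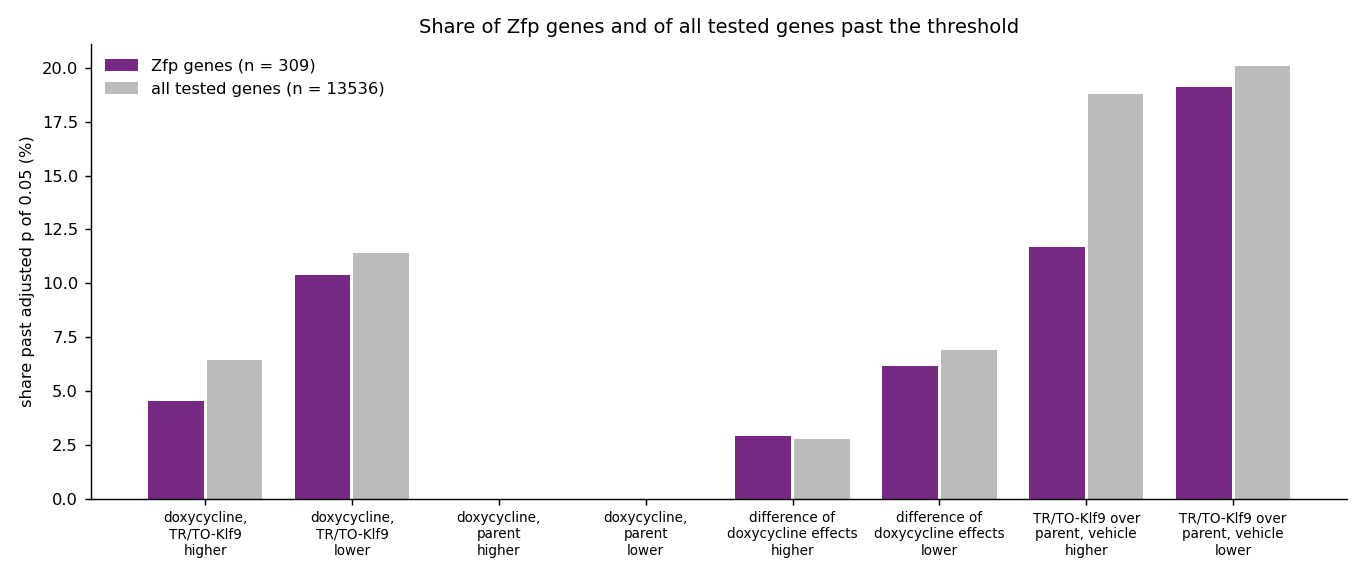
Share of genes past an adjusted p of 0.05 (percent, y axis) among the 309 Zfp genes (purple) and among all 13536 tested genes (grey), by comparison and direction on the x axis. In TR/TO-Klf9 cells 4.53% of Zfp genes were higher and 10.4% lower with doxycycline, and no bar stands for the parent line because no gene passed there.

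Zfp369 had 6.67 CPM in the TR/TO-Klf9 doxycycline library, against 20.9 and 22.3 CPM in the TR/TO-Klf9 vehicle libraries. The library under both labels held 21.3 CPM, between the vehicle libraries. In parent cells Zfp369 had 25, 26.1 and 27.2 CPM with doxycycline, against 27.2, 23.3 and 26.7 CPM with vehicle. The TR/TO-Klf9 doxycycline library was thus the lowest of all, and doxycycline and vehicle libraries of the parent line overlapped. The fold change in log2 was -1.69 ± 0.15 SE (adjusted p = 4.04e-06), a 3.23-fold lower level. With only the 3 TR/TO-Klf9 libraries in the fit, where 0.55% of 13279 tested genes passed, Zfp369 was the 1 Zfp gene among them. Its relative Zfp110, on chromosome 7 beside Zfp329, had 55.1 CPM in the doxycycline library, against 57.8 and 54.1 CPM in the vehicle libraries (log2 -0.02 ± 0.09 SE, adjusted p = 0.897). Zfp110 thus lay within its vehicle range in the library in which Zfp369 was lowest. In bulk RNA, fewer cells with a transcript and less transcript per cell cannot be told apart.

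Zfp704, known as a glucocorticoid-induced gene and the longest transcript among the 309 at 13834 nt, had 8.20 CPM in the doxycycline library, against 16.2 and 20.6 CPM in the vehicle libraries (log2 -1.17 ± 0.18 SE, adjusted p = 0.000398). Zfp382, whose human counterpart is a KRAB repressor, had 12.4 CPM, against 23.3 and 23.0 CPM (log2 -0.90 ± 0.12 SE, adjusted p = 0.000113). Both genes were lower in the doxycycline library than in any other library, and the library under both labels held 19.8 CPM of Zfp704 and 23.7 CPM of Zfp382. Zfp568, which represses a placental Igf2 transcript in mouse embryos, had 51.6 CPM in the doxycycline library, against 78.3 and 77.3 CPM in the vehicle libraries (log2 -0.59 ± 0.08 SE, adjusted p = 0.000202). Zfp329 had 37.1 CPM, against 52.7 and 58.6 CPM (log2 -0.59 ± 0.09 SE, adjusted p = 0.000549). The library under both labels, at 68.4 CPM of Zfp568 and 54.5 CPM of Zfp329, lay nearer the vehicle libraries than the doxycycline library. Zfp568 and Zfp382 belong to the same run of 15 genes on chromosome 7, in which Zfp146 also fell (log2 -0.24 ± 0.07 SE). In that run 3 of 15 genes fell and 0 rose, where 11.4% of all tested genes fell and 6.44% rose.

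**Figure D2:**
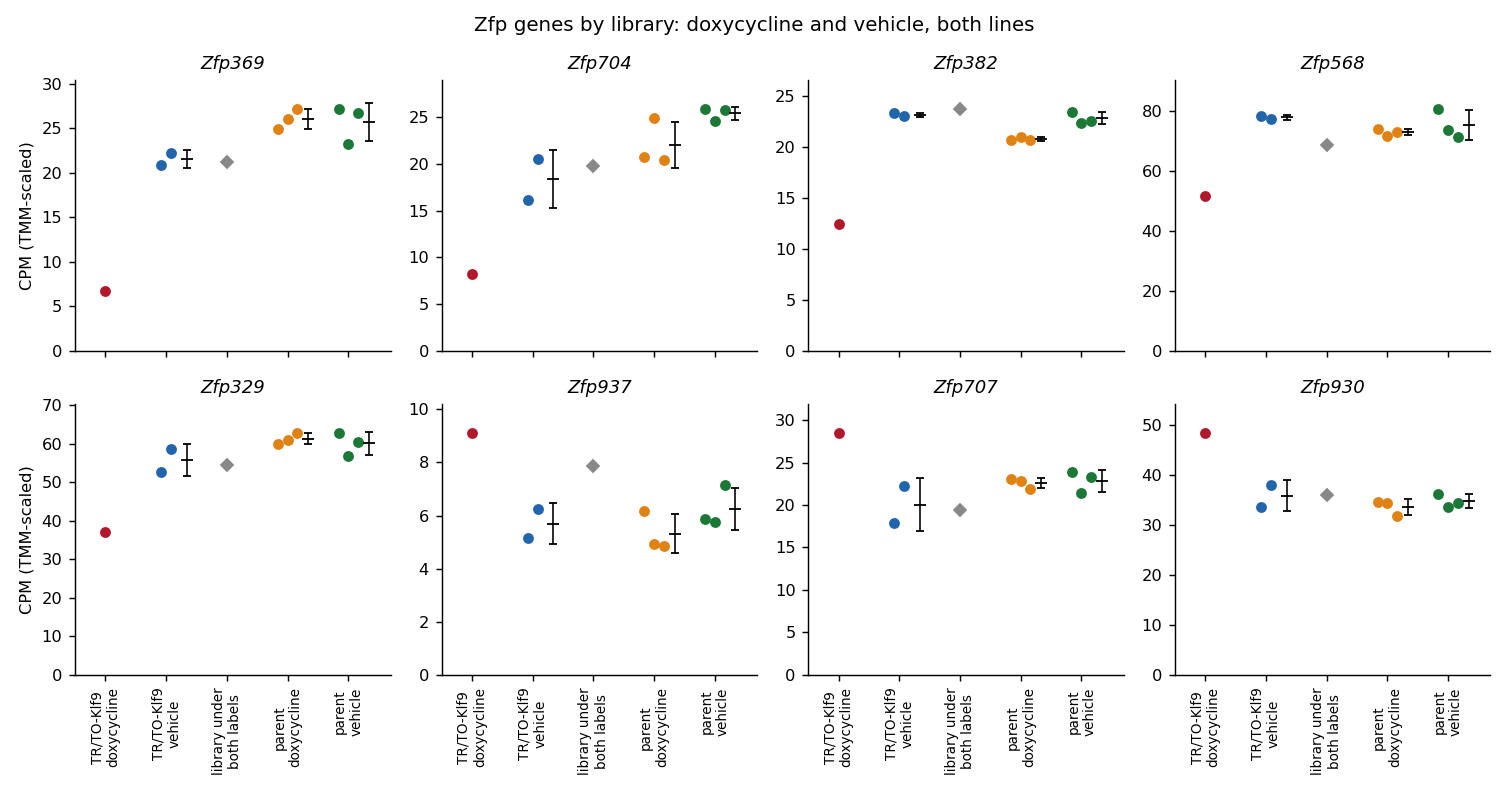
CPM (y axis, from 0) of 8 Zfp genes in each library, by group on the x axis, with 1 point per library and, for groups of more than 1 library, the mean and SD as a black bar. Zfp369, Zfp704, Zfp382, Zfp568 and Zfp329 were lowest in the TR/TO-Klf9 doxycycline library and Zfp937, Zfp707 and Zfp930 highest there, and the grey diamond is the library under both labels. The 8 genes were picked for large changes in that library.

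The other named falls included several long transcripts. Zfp407, which promotes glucose uptake genes in mouse adipocytes, had 40.6 CPM in the doxycycline library, against 65.3 and 59.0 CPM in the vehicle libraries (log2 -0.61 ± 0.09 SE). Zfp516, a brown fat factor at the Ucp1 promoter, had 58.5 CPM, against 89.7 and 87.2 CPM (log2 -0.60 ± 0.08 SE). These 2 genes and Zfp236 (log2 -0.46 ± 0.11 SE) form a run on chromosome 18 in which all 3 genes fell. It was picked from 27 runs, and 11.4% of all tested genes fell. With the length trend removed Zfp407 and Zfp516 still passed and Zfp236 did not. Zfp217, whose human counterpart is amplified in breast cancer, had 32.8 CPM, against 46.9 and 49.5 CPM (log2 -0.56 ± 0.10 SE). Zfp871 had 235 CPM, against 353 and 311 CPM (log2 -0.50 ± 0.09 SE), with 304 CPM in the library under both labels. In each of these genes the doxycycline library lay below both vehicle libraries and below the library under both labels. They were picked for large falls, so this follows in part from the choice.

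Lower levels gave wider errors. Zfp964 had 1.92 CPM in the doxycycline library, against 4.14 and 3.79 CPM in the vehicle libraries (log2 -1.04 ± 0.35 SE, adjusted p = 0.0468), and Zfp971 had 3.91 CPM, against 6.49 and 6.09 CPM (log2 -0.68 ± 0.21 SE, adjusted p = 0.0333). Zfp28 had 12.5 CPM, against 17.9 and 18.1 CPM (log2 -0.53 ± 0.14 SE, adjusted p = 0.0156), and 51.1% of its transcript is near-identical to another annotated gene, so its reads may be shared. Parent cells held 10.8 to 12.8 CPM of Zfp28 over 6 libraries, so its doxycycline level in TR/TO-Klf9 cells lay inside the range of parent cells. The remaining 20 falls lay between -0.49 and -0.24 in log2.

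Rises were smaller. Zfp937 had 9.12 CPM in the doxycycline library, against 5.16 and 6.24 CPM in the vehicle libraries (log2 0.67 ± 0.20 SE, adjusted p = 0.0304), and the library under both labels held 7.86 CPM, between the doxycycline and the vehicle values. Zfp422 had 10.2 CPM, against 6.02 and 7.43 CPM (log2 0.60 ± 0.18 SE), and 26.5% of its transcript is near-identical to other genes, chiefly its pseudogene Zfp422-ps. Zfp354a, known as Kid1 from the developing kidney, had 18.2 CPM, against 13.1 and 12 CPM (log2 0.54 ± 0.17 SE), with 14.8 CPM in the library under both labels. The library under both labels thus lay above both vehicle libraries for Zfp937 and Zfp354a but still below the doxycycline library.

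Zfp707 had 28.5 CPM in the doxycycline library, against 17.8 and 22.3 CPM in the vehicle libraries (log2 0.50 ± 0.13 SE, adjusted p = 0.0119). Zfp930 had 48.5 CPM, against 33.7 and 38.0 CPM (log2 0.43 ± 0.10 SE, adjusted p = 0.00591), and held 36.1 CPM in the library under both labels and 31.7 to 36.3 CPM over the 6 parent libraries. Zfp930 was therefore higher in the doxycycline library than in any other library. Zfp820 (log2 0.45 ± 0.14 SE), Zfp39 (0.45 ± 0.15 SE) and Zfp979 (0.38 ± 0.09 SE) completed the 8 largest rises, and the remaining 6 lay between 0.33 and 0.36. Zfp979 shares 21% of its transcript with Zfp978.

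The doxycycline library differed from the vehicle libraries by little more than they differed from each other. Over the 247 Zfp genes at 8 CPM or more, the median absolute log2 ratio was 0.17 and 0.16 between the doxycycline library and the vehicle libraries. It was 0.13 between the vehicle libraries themselves, and 0.10, 0.08 and 0.06 between pairs of parent vehicle libraries. The main fit shares 1 spread over all groups, most of it from parent libraries, so its p-values for TR/TO-Klf9 cells may be too small. With only the 3 TR/TO-Klf9 libraries fitted, edgeR called 0 rises and 1 fall, and 42 Zfp genes had an unadjusted p under 0.05. With the library under both labels counted as doxycycline, edgeR called 0 Zfp genes and 0.0% of all tested genes. There 32 Zfp genes had an unadjusted p under 0.05. Counted as vehicle, that library gave 48 calls. DESeq2 called 24 of the 309 and 9.74% of all tested genes, and without TR/TO-Klf9 vehicle 2 edgeR called 70. Of the named genes, Zfp937 and Zfp422 lost the call without TR/TO-Klf9 vehicle 1, and Zfp354a without parent doxycycline 1 or 3. Zfp971 lost it without TR/TO-Klf9 vehicle 1, parent doxycycline 2 or 3 or parent vehicle 3, and Zfp964, Zfp820 and Zfp39 did so without any of at least 5 single libraries.

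Fold changes with doxycycline in TR/TO-Klf9 cells were lower for longer transcripts, among Zfp genes and among the other tested genes. The median transcript was 5383.5 nt long for the 32 Zfp genes that fell, 2652.5 nt for the 14 that rose, 3477 nt for all 308 with a length and 2789.5 nt for other tested genes. The Zfp genes were cut into 4 length classes of 77. In the shortest class, from 962 to 2595 nt, the median log2 fold change was 0.09, and 0.08 for other genes of these lengths. In the longest class, from 4648 to 13834 nt, it was -0.16, and -0.19 for other genes of these lengths. There 17 of 77 Zfp genes fell (22.1%), and 30.0% of the other genes did. In the middle classes the medians were 0.05 and -0.07 for Zfp genes, against 0.00 and -0.06 for other genes.

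**Figure D3:**
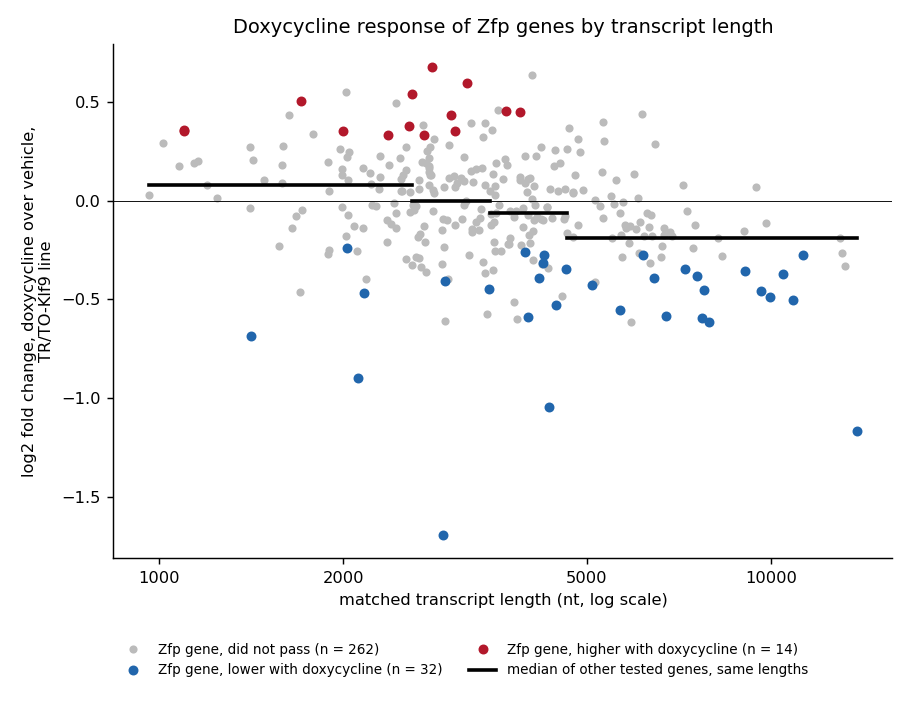
Log2 fold change of doxycycline over vehicle in TR/TO-Klf9 cells (y axis) against matched transcript length in nt (x axis, log scale) for 308 Zfp genes, with genes past an adjusted p of 0.05 in blue (lower) and red (higher). Black lines give the median of the other tested genes over each of 4 length classes, 0.08 in the shortest and -0.19 in the longest.

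With the trend on length removed from every library, 13 Zfp genes fell (4.21%) and 15 rose (4.85%), against 4.95% and 5.36% of all tested genes, and the median log2 fold change of the Zfp genes changed sign, to 0.05. Zfp369 kept its size (log2 -1.66 ± 0.15 SE), and so did Zfp382 (-0.91 ± 0.12 SE), Zfp971 (-0.73 ± 0.21 SE) and Zfp568 (-0.51 ± 0.08 SE). Zfp704 moved to -0.80 ± 0.18 SE and still passed (adjusted p = 0.0113). Zfp871 moved to -0.18 ± 0.10 SE and did not pass (adjusted p = 0.277), and neither did Zfp28 or Zfp964. Of the 32 falls 12 were called in both fits, and of the 14 rises 10 were, among them Zfp937, Zfp422, Zfp354a, Zfp707, Zfp930 and Zfp979. Zfp354c, known as Kid3, was among 5 genes that rose only with the trend removed (log2 0.56 ± 0.14 SE).

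KRAB genes and other Zfp genes were described separately, without a test between them. Of 162 genes with KRAB letters 12 fell (7.41%) and 8 rose (4.94%) with doxycycline in TR/TO-Klf9 cells, with a median log2 fold change of 0.05. Of 144 genes without them 20 fell (13.9%) and 6 rose (4.17%), with a median of -0.10. Over all tested genes 11.4% fell and 6.44% rose. The KRAB genes had the shorter transcripts, with a median of 3364.5 nt against 3739 nt, and with the length trend removed the medians were 0.11 and 0.01. In that fit 5 genes fell (3.09%) and 11 rose (6.79%) among those with KRAB letters, and 8 fell (5.56%) and 4 rose (2.78%) among those without, where 4.95% and 5.36% of all tested genes fell and rose. Among the 11 genes with SCAN letters 2 fell, Zfp369 among them.

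The second question was what doxycycline did in parent cells, which lack the cassette. No Zfp gene passed by edgeR, as no gene did among all tested (0.0%), and DESeq2 also called 0. At an unadjusted p under 0.05 stood 8 Zfp genes by edgeR and 1 by DESeq2. The smallest p-values belonged to Zfp688 and Zfp574. Zfp688 had 6.08, 4.65 and 5.03 CPM in parent doxycycline cells, against 7.17, 7.43 and 6.68 CPM in parent vehicle cells (log2 -0.43 ± 0.14 SE, adjusted p = 1). Zfp574 had 45.2, 47.0 and 43.4 CPM, against 52.9, 48.7 and 49.6 CPM (log2 -0.16 ± 0.06 SE, adjusted p = 1). Both were picked for the smallest p-values, so groups that do not overlap follow in part from the choice. Neither gene passed over 13536 genes. The median log2 fold change of the 309 genes was -0.02.

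The third comparison tested the difference itself, the doxycycline effect in TR/TO-Klf9 cells minus that in parent cells. It uses the same TR/TO-Klf9 libraries as the first comparison, so the lists below are not independent of it. Of the 309 genes 19 differed downward (6.15%) and 9 upward (2.91%), against 6.92% and 2.75% of all tested genes. All 19 had also fallen in TR/TO-Klf9 cells, and 8 of the 9 had risen there. Zfp354c was the exception, at 20.2 CPM in the TR/TO-Klf9 doxycycline library, against 13.8 and 16.8 CPM in the TR/TO-Klf9 vehicle libraries, and at 13.4 to 16.5 CPM in parent doxycycline cells, against 17.1 to 17.5 CPM in parent vehicle cells.

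Zfp369 differed most, by -1.70 ± 0.18 SE (adjusted p = 2.55e-05), since its parent effect was 0.01 ± 0.08 SE. Zfp704 differed by -0.96 ± 0.20 SE, Zfp382 by -0.76 ± 0.14 SE, Zfp329 by -0.61 ± 0.11 SE and Zfp568 by -0.54 ± 0.10 SE. Zfp292, whose human counterpart is mutated in a neurodevelopmental disorder, differed by -0.48 ± 0.08 SE, and Zfp609, a partner of the cohesin loader Nipbl and of Integrator in the mouse cortex, by -0.45 ± 0.09 SE. Zfp292 had 125 CPM in the TR/TO-Klf9 doxycycline library, against 179 and 171 CPM in the TR/TO-Klf9 vehicle libraries, and Zfp609 had 93.0 CPM, against 119 and 136 CPM. Upward, Zfp937 differed by 0.91 ± 0.25 SE, Zfp422 by 0.76 ± 0.22 SE, Zfp707 by 0.53 ± 0.15 SE and Zfp930 by 0.49 ± 0.12 SE.

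With the length trend removed 5 Zfp genes differed downward and 2 upward, against 2.27% and 1.28% of all tested genes. The 5 were Zfp369 (-1.68 ± 0.17 SE), Zfp382 (-0.79 ± 0.14 SE), Zfp568 (-0.47 ± 0.10 SE), Zfp219 (-0.41 ± 0.10 SE) and Zfp329 (-0.40 ± 0.11 SE), and each of them also passed in TR/TO-Klf9 cells in both fits. Zfp219, a cofactor of Sox9 in mouse cartilage, had 43.0 CPM in the TR/TO-Klf9 doxycycline library, against 58.5 and 55.6 CPM in TR/TO-Klf9 vehicle libraries. Its span overlaps those of the tested genes Arhgef40 and Tmem253. Some of its reads may be shared with them, since no strand setting is given in the sources used here. Zfp930 (0.52 ± 0.12 SE) was the 1 gene that met the same conditions upward. DESeq2 called 16 Zfp genes in the difference (5.18%), all downward, where 4.94% of all tested genes passed downward and 0.347% upward. It gave no adjusted p for Zfp937. In the difference Zfp930 lost the call without parent doxycycline 3 and Zfp937 without parent doxycycline 2 or 3 or parent vehicle 3, and Zfp217 without parent doxycycline 1 or 3 or parent vehicle 3. Zfp422, Zfp707, Zfp354c, Zfp580, Zfp637, Zfp979, Zfp219 and Zfp236 lost it without any of at least 4 single libraries, and the other 10 genes named for the difference kept it. The count of 28 was 12 without parent doxycycline 1, 13 without parent doxycycline 2, parent doxycycline 3 or parent vehicle 3, and 58 without TR/TO-Klf9 vehicle 2.

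The last comparison set the lines against each other under vehicle. Of the 309 genes 59 were lower (19.1%) and 36 higher (11.7%) in the TR/TO-Klf9 line, against 20.1% and 18.8% of all tested genes, with a median log2 fold change of 0.00. These counts include Zfp810 among the lower and Zfp870, Zfp112, Zfp174 and Zfp975 among the higher genes, which reached the limit in 1 line only. The transfected line went through selection, and the clone or pool it stems from is not given in the labels, so the transgenes, the selection and the derivation of the line cannot be told apart here. Marker lists of other cell types moved with the line as well. The 5 microglia markers summed to 12.7 to 14.6 CPM in TR/TO-Klf9 vehicle cells, against 1.55 to 2.7 CPM in parent vehicle cells. Csf1r and Aif1, the 2 of them tested, were higher, and Ptprc, Aif1, Cx3cr1 and Itgam lay under 1 CPM in every library. The 12 neuron markers summed to 18.8 to 23.3 CPM, against 34.4 to 35.7 CPM, with Tubb3 lower and Elavl3 higher. Of the 8 fibroblast markers 4 were higher and 1 lower. Their part in the Zfp differences was not tested.

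Zfp810, a KRAB gene on chromosome 9, was nearly silent in one line. It had 0 and 0.22 CPM in the TR/TO-Klf9 vehicle libraries, against 6.91, 7.33 and 6.84 CPM in the parent vehicle libraries. The sums were 3 counts in TR/TO-Klf9 vehicle and 292 in parent vehicle. The level in parent cells was 60.8 times that in TR/TO-Klf9 cells, a ratio that rests on those 3 counts. Doxycycline libraries held 0.15 CPM in TR/TO-Klf9 cells and 7.02 to 7.2 CPM in parent cells, so every library followed its line. Zfp810 met the limit on mean level through the parent libraries alone, so its values are a description and no test is given. Its neighbour Zfp809, which silences murine leukemia retroviruses in embryonic stem cells, had 52.8 and 61.3 CPM in TR/TO-Klf9 vehicle cells, against 67.8 to 68.9 CPM in parent vehicle cells (log2 -0.26 ± 0.06 SE, adjusted p = 0.00353). Zfp599, the third gene of that run, had a log2 fold change of -0.15 ± 0.13 SE and did not pass.

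Zfp462, a protein that limits heterochromatin and whose human counterpart is mutated in a developmental disorder, had 163 and 188 CPM in TR/TO-Klf9 vehicle cells, against 320, 314 and 321 CPM in parent vehicle cells (log2 -0.86 ± 0.06 SE, adjusted p = 1.81e-08). Zfp647 had 7.35 and 6.98 CPM, against 15.4, 13.2 and 16.7 CPM (log2 -1.09 ± 0.13 SE). Zfp608, a relative of Zfp609, had 19.9 and 25 CPM, against 46.6, 43.3 and 43.9 CPM (log2 -0.99 ± 0.09 SE). The vehicle libraries of the lines did not overlap for any of the 3 genes, which were picked for large falls. Zfp992 (log2 -1.09 ± 0.25 SE), Zfp629 (-0.94 ± 0.13 SE), Zfp189 (-0.75 ± 0.16 SE), Zfp637 (-0.73 ± 0.07 SE) and Zfp658 (-0.73 ± 0.14 SE) were also lower, and 54.8% of the Zfp992 transcript is near-identical to other genes. Zfp398, Zfp239 and Zfp981 completed the 12 largest falls, between -0.69 and -0.60, and Zfp398 and Zfp981 each overlap another gene.

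Among genes higher in TR/TO-Klf9 cells, Zfp850 had 8.13 and 8.69 CPM, against 4.15, 3.96 and 2.98 CPM in parent vehicle cells (log2 1.17 ± 0.17 SE, adjusted p = 3.6e-05). Zfp874b (log2 0.67 ± 0.16 SE), Zfp597 (0.66 ± 0.08 SE) and Zfp473 (0.66 ± 0.23 SE) were also higher, and Zfp473 lost the call without any of at least 4 single libraries. Human ZNF473 takes part in histone mRNA processing. Zfp870, Zfp112, Zfp174 and Zfp975 belong to the 8 largest rises too, but met the limit on mean level through the TR/TO-Klf9 libraries alone, so their values are a description with no test. Zfp870 had 3.36 and 3.34 CPM in TR/TO-Klf9 vehicle cells, against 1.19, 1.29 and 1.53 CPM in parent vehicle cells. Zfp112 had 1.80 and 3.34 CPM, against 1.35, 1.49 and 1.21 CPM, and its TR/TO-Klf9 libraries differed widely from each other. Zfp174 and Zfp597 overlap each other on chromosome 16, and Zfp874b shares 21% of its transcript with Zfp874a.

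**Figure D4:**
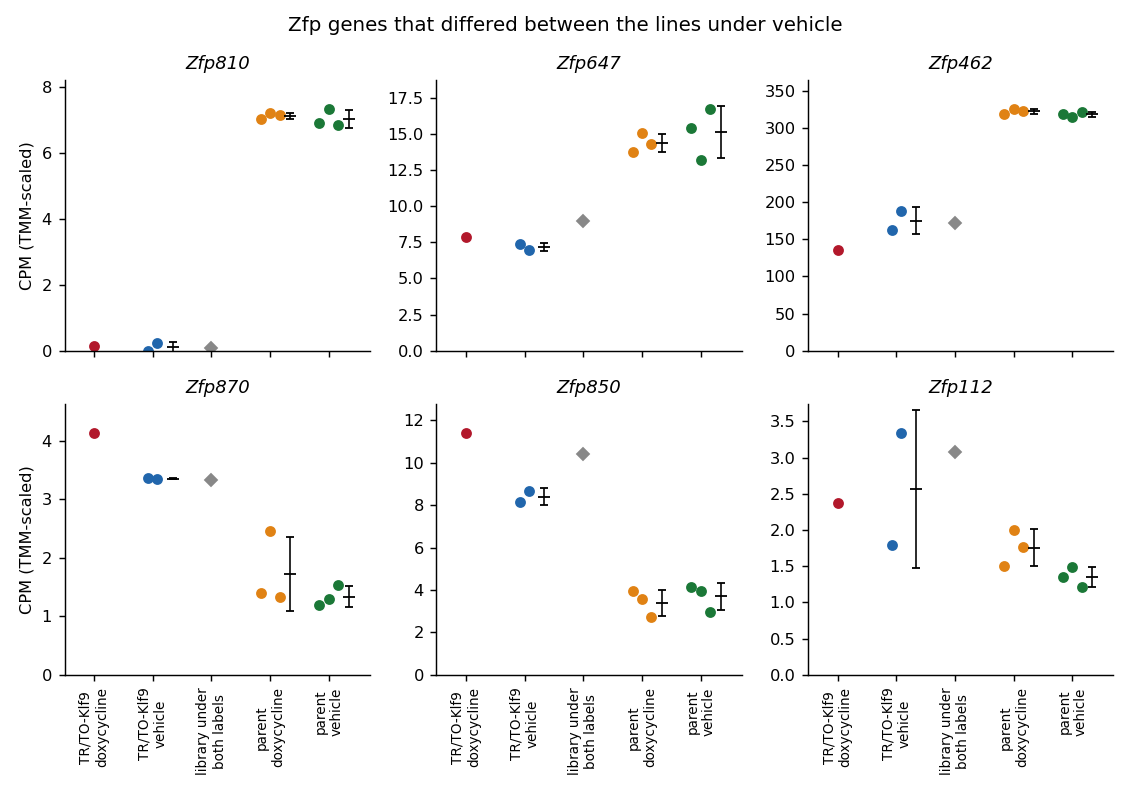
CPM (y axis, from 0) of 6 Zfp genes in each library, by group on the x axis, with 1 point per library and, for groups of more than 1 library, the mean and SD as a black bar. Zfp810, Zfp647 and Zfp462 were lower and Zfp870, Zfp850 and Zfp112 higher in TR/TO-Klf9 vehicle libraries, set against parent vehicle libraries, and the grey diamond is the library under both labels.

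The called Zfp genes were spread unevenly over the chromosomes. On chromosome 6, 13 of 16 Zfp genes were lower in TR/TO-Klf9 cells and 0 higher, with a median log2 fold change of -0.39. Its run of 6 genes between Zfp398 and Zfp746 was lower throughout. On chromosome 10, 4 of 5 were lower (median -0.29), and on chromosome 16, 3 of 4 were higher (median 0.47). Zfp174 is among these 3, and it met the limit on mean level through the TR/TO-Klf9 libraries alone. The other tested genes of chromosomes 6, 10 and 16 moved the same way. Among 623 other genes of chromosome 6, 46.2% were lower and 5.78% higher (median -0.20). Among 649 of chromosome 10, 64.1% were lower and 3.39% higher (median -0.33), and among 419 of chromosome 16, 4.3% were lower and 74.7% higher (median 0.35). Chromosome 15 showed a smaller shift, with 4 of 10 Zfp genes lower and 34.4% of the other genes lower. The part of whole-chromosome shifts in the Zfp differences was not tested.

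**Figure D5:**
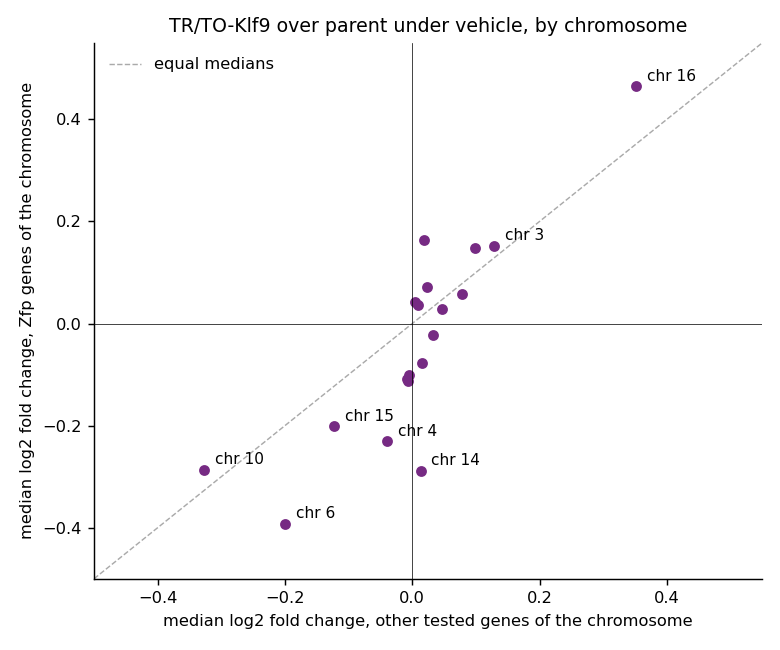
Median log2 fold change of TR/TO-Klf9 over parent cells under vehicle for the Zfp genes of each chromosome (y axis) against that of the other tested genes of the same chromosome (x axis), for chromosomes with at least 3 Zfp genes. Chromosomes 6 and 10 lie low and chromosome 16 high on both axes, and the dashed line marks equal medians.

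The counts by chromosome include Zfp174, Zfp870, Zfp112, Zfp975 and Zfp810, which met the limit on mean level through the libraries of a single line. Chromosomes 3, 6, 10, 15 and 16, where the other genes had shifted most, held 40 Zfp genes, of which 23 were lower (57.5%) and 5 higher (12.5%), with 33.7% of their other genes lower and 22.2% higher. On the other 15 chromosomes the medians of other genes lay between -0.04 and 0.10, and there 36 of 269 Zfp genes were lower (13.4%) and 31 higher (11.5%), with 16.2% of the other genes lower and 18.1% higher. On chromosome 4, 8 of 17 Zfp genes were lower and 0 higher (median -0.23), with 32.8% of the other genes lower and 13.9% higher (median -0.04). On chromosome 7, 11 of 78 were higher (14.1%) and 5 lower (6.41%), with 14.9% of the other genes higher and 14.4% lower. With doxycycline in TR/TO-Klf9 cells no chromosome shifted so. The medians of other genes lay between -0.06 and 0.01 over the 20 chromosomes, and on chromosome 13, where Zfp369 lies, 2 of 26 Zfp genes fell, against 11% of the other genes.

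Line and doxycycline differences share the TR/TO-Klf9 vehicle libraries, so their values are set side by side only. Zfp637 had 30.9 CPM in the TR/TO-Klf9 doxycycline library, 24.2 and 24.2 CPM in the TR/TO-Klf9 vehicle libraries and 39.7 to 40.7 CPM in parent vehicle cells. Zfp35 and Zfp979 likewise were below parent vehicle cells in TR/TO-Klf9 vehicle cells and rose with doxycycline. Zfp28 lay higher in TR/TO-Klf9 vehicle cells, at 17.9 and 18.1 CPM against 11.7 to 12.4 CPM in parent vehicle cells, and fell with doxycycline. Zfp369, Zfp462 and Zfp704 were lower in TR/TO-Klf9 vehicle cells and fell further with doxycycline, Zfp462 to 136 CPM.

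Genes that work with the Zfp proteins were followed as lists. Of 22 genes of the KRAB corepressor machinery 6 fell and 0 rose with doxycycline in TR/TO-Klf9 cells, with a median log2 fold change of -0.17, where 11.4% of all tested genes fell and 6.44% rose. With the length trend removed 2 of the 22 fell, and 4.95% of all tested genes did. Cbx3, a heterochromatin protein, fell by 0.59 ± 0.15 SE and Morc3, a nuclear ATPase, by 0.42 ± 0.07 SE, and both passed with the trend removed. In the difference of effects 3 of the 22 passed downward, Morc3 among them and Cbx3 not, where 6.92% of all tested genes did. With the trend removed 1 passed there, Morc3, where 2.27% of all tested genes did. Trim28 itself had 334 CPM in the doxycycline library, against 321 and 333 CPM in the vehicle libraries (log2 0.03 ± 0.10 SE, adjusted p = 0.869), and Setdb1 had 164 CPM, against 163 and 163 CPM. Neither gene passed the test. Of 39 tested Zbtb genes, whose proteins join a BTB domain to zinc fingers, 13 fell and 1 rose (median -0.22), set beside the same shares of all genes. With the trend removed 7 fell and 1 rose, where 4.95% of all tested genes fell and 5.36% rose. Zbtb37 fell by 1.45 ± 0.21 SE, Zbtb38, which binds methylated DNA, by 0.63 ± 0.10 SE and Zbtb12 by 0.59 ± 0.13 SE. Of 16 tested Zscan and Zkscan genes, the SCAN relatives, 2 fell and 0 rose, with a median of -0.01, beside the 11.4% and 6.44% of all tested genes.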

How the data were processed

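RNA of the 11 deposited columns was sequenced from oligo-dT libraries, per the labels' protocols. The submitters' processing notes list CASAVA, FastQC, Bowtie, DESeq and the build mm8. The deposited table holds raw read counts per RefSeq transcript, made by the authors. The sources used here give no counting program, strand setting or tool version. Of 32923 accessions in 33815 rows, 32500 had a symbol in the RefSeq table of GRCm38.p6, which also gave chromosome and neighbour order. No coordinate of mm8 was used. The row with the highest mean was kept for each of 24143 genes, and 0 columns were unused.

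The libraries hold 10302431 to 18902784 counts. The main test was edgeR 4.0.16 in R 4.3.3: filterByExpr, TMM, a robust quasi-likelihood fit of 4 group means to 9 libraries, and Benjamini-Hochberg adjustment over 13536 genes. It has 5 residual degrees of freedom. The library with identical counts under opposite labels was left out of both groups. An SE was taken as the absolute log2 fold change divided by the square root of F. The common dispersion came to 0.00229, or 4.78% as a coefficient of variation. DESeq2 1.42.0 was an alternative, and the further alternatives are named with their effects in the closing section. The length trend was a loess (span 0.4) on log2 length of GENCODE transcripts matched by accession, used as an offset, with lengths for 308 Zfp genes. The scripts were tested on simulated data. Tables were made with Python 3.11.15, pandas 2.3.3, numpy 2.4.6 and scipy 1.17.1, and plots with matplotlib 3.10.9.

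Near-identical sequence was counted over stretches of at least 50 nt and 97% identity between transcripts. It exceeded 20% of the transcript for 28 of 308 Zfp genes, and 38 Zfp genes overlap another tested gene. Protein features were read from the longest open reading frame.

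The Zfp genes, the lists and the tests were chosen with earlier results of these data known. Genes were named by a rule: Zfp369 and Zfp110, the 12 largest falls and 8 largest rises past the threshold in each comparison, the 2 smallest p-values in the parent line, genes passing also with the length trend removed, the 3 highest and 3 lowest levels, those nearest the limit, and up to 4 called genes per list. Trim28, Setdb1, Zfp146, Zfp599, Zfp809 and Zfp35 were named after their values were seen.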

Additional observations from a re-analysis of the deposited data

Results flagged for a closer look

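For 20 named Zfp genes the test of the difference itself found that the doxycycline effect was not the same in both lines (edgeR, adjusted p under 0.05). Values are log2 and give the effect in TR/TO-Klf9 cells minus the effect in parent cells. The difference was negative for Zfp369 (-1.70), Zfp704 (-0.96), Zfp382 (-0.76), Zfp329 (-0.61), Zfp871 (-0.56), Zfp568 (-0.54), Zfp516 (-0.53), Zfp407 (-0.51), Zfp292 (-0.48), Zfp236 (-0.47), Zfp217 (-0.46) and Zfp609 (-0.45). It was positive for Zfp937 (0.91), Zfp422 (0.76), Zfp354c (0.61), Zfp707 (0.53), Zfp930 (0.49), Zfp580 (0.48), Zfp637 (0.40) and Zfp979 (0.37). All 20 rest on the same single TR/TO-Klf9 doxycycline library. With the length trend removed, Zfp369, Zfp382, Zfp329, Zfp568, Zfp354c and Zfp930 still passed and the others did not. With the replicate block none of the 8 positive differences passed, nor did Zfp217 and Zfp236. By DESeq2 Zfp217 and 7 of the 8 positive differences did not pass, and Zfp937 had no adjusted p. Over all tested genes DESeq2 called 0.347% upward, where edgeR called 2.75%.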

How the results depend on the processing

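For doxycycline in TR/TO-Klf9 cells the 46 Zfp genes past the threshold became 24 with DESeq2 and 30 with the replicate block. They became 28 once the length trend was taken out and 1 in a fit of only the groups compared. Over all tested genes 11.4% fell and 6.44% rose in the main fit. The share called was 9.74% with DESeq2, 10.2% with the replicate block and 0.55% with only the groups compared. With the length trend removed 4.95% of all tested genes fell and 5.36% rose. With the library under both labels counted as doxycycline or in both groups edgeR called 0 Zfp genes and 0.0% of all tested genes. At an unadjusted p under 0.05 by edgeR stood 32 and 24 Zfp genes. With only TR/TO-Klf9 libraries and that library as vehicle, an alternative chosen after seeing the data, 11 passed, and 2.86% of all tested genes did. Leaving out single libraries gave 35 to 70, with 70 without TR/TO-Klf9 vehicle 2. For the difference of effects the 28 genes became 16 with DESeq2, 12 with the replicate block and 7 with the length trend removed. Over all tested genes 6.92% differed downward and 2.75% upward in the main fit. The share called was 5.29% with DESeq2 and 4.48% with the replicate block. With the length trend removed 2.27% differed downward and 1.28% upward. With the library under both labels as doxycycline or in both groups edgeR called 0 Zfp genes and 0.0% of all tested genes. At an unadjusted p under 0.05 by edgeR stood 22 and 13 Zfp genes. With that library as vehicle and the length trend removed, also chosen after seeing the data, 6 passed. Leaving out single libraries gave 12 to 58. Between the lines the 95 genes became 58 with DESeq2, and 70 to 117 with single libraries left out. DESeq2 called 15.2% of all tested genes lower and 13.2% higher there, against 20.1% and 18.8% in the main fit. No share of all tested genes is given for the fits without single libraries. In the parent line edgeR called 0 in every alternative run. RLE scaling, no filter, a stricter filter, summed rows and the library as vehicle alone kept each count within 1.5 times. No gene named for the size of its change had another sign under the alternatives run for the comparison it was named in. The median over all Zfp genes changed sign in 3 of 21 alternatives with doxycycline in TR/TO-Klf9 cells and in 7 of 19 for the difference, as did Zfp110, which did not pass, in 6 of 21. Zfp369 with doxycycline ran from -1.74 to -1.63 in log2, except -0.64 with the library under both labels as doxycycline or in both groups, where it did not pass. Deviations of same-numbered libraries correlated between -0.08 and 0.02 over 7 pairs, and those of other pairs between -0.08 and 0.08. These pairs are not independent, and the lone TR/TO-Klf9 doxycycline library could not enter the check. It therefore cannot settle whether the replicate numbers mark a pairing. Whether a call lost under the replicate block reflects a smaller effect was not tested. A fit with only the groups compared was not run for the difference, nor one without the lone TR/TO-Klf9 doxycycline library. The cause of these moves was not tested.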

Other observations

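The library under both labels was left out of the main comparisons and entered only the alternatives that name it. Of the 32 Zfp genes that fell with doxycycline in TR/TO-Klf9 cells, it lay above the doxycycline library in 32, nearer the vehicle mean than the doxycycline library in 31, and within the range of the vehicle libraries in 17. Of the 14 that rose, it lay below the doxycycline library in 14, nearer the vehicle mean in 12 and within the vehicle range in 7. These genes were called without it, but for a large gap between the doxycycline library and the vehicle libraries. A place on the vehicle side therefore follows in part from the choice, and no share over all tested genes is given. Its group was not assigned from these values.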
